A study of Drosophila melanogaster with 11 samples.

Results

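The genes described here are 31 members of the ecdysone response of Drosophila melanogaster, taken by symbol from a table of raw read counts, and all 31 were found among its 16034 entries. The set holds the hormone receptor and its partners, the transcription factors that the hormone induces, enzymes and a transporter that set hormone level, and further ecdysone-inducible genes. Hr3 is listed in the table under its older symbol Hr46, which is used below. RNA was measured in 3rd instar larvae that were homozygous for the c07081 allele of dCap-D3 (w;dCap-D3c07081/c07081) or wild type (w1118), kept at 25 C. The salivary gland groups had 3 mutant and 3 wild-type libraries, each from 50 pooled tissues, and the wing disc groups had 2 mutant and 3 wild-type libraries, each from 150 pooled tissues. dCap-D3 belongs to condensin II, which compacts and folds chromosomes. The wing libraries kept the strand of the RNA and the salivary libraries did not, so tissue and library kind cannot be told apart. The labels state neither a stage within the 3rd instar nor whether replicate libraries stem from different cultures. The p-values measure only the spread between these libraries.

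Ecdysone is the steroid that drives moulting and metamorphosis in insects. Its active form, 20-hydroxyecdysone, binds a dimer of the nuclear receptors EcR and usp, which switches on a small set of early genes, and their products in turn act on early-late and late genes. In the larval salivary gland these waves appear as puffs on the giant polytene chromosomes, first while glue proteins are made and secreted and later as the gland is destroyed. In imaginal discs such as the wing disc the same hormone drives evagination and differentiation of the adult structure.

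The libraries held 52483185 to 157639957 counts. Levels are given below as CPM, read counts set relative to a library size that was adjusted between all 11 libraries by edgeR (TMM factors). Replicates are numbered within their group in order of library number, and the labels match no replicates between groups. The detection floor, the 3 counts that an observed 0 still allows, was 0.0637 to 0.0755 CPM in salivary and 0.0133 to 0.0322 CPM in wing libraries, for counting error only. Cap-D3 fell in mutant salivary glands, to 0.0843 ± 0.0111 CPM against 6.63 ± 0.858 CPM in wild type (SD, n = 3 each; log2 fold change -6.33 ± 0.22 SE, adjusted p = 1.43e-04). In wing discs Cap-D3 averaged 1.74 ± 0.166 CPM in mutants (SD, n = 2) and 12.9 ± 5.92 CPM in wild type (SD, n = 3), with an adjusted p of 0.0912. All 11 salivary gland identity markers were higher in salivary than in wing wild type, and of 14 wing disc identity markers 12 were lower and 2 higher. In bulk tissue, fewer cells of a type and less RNA per cell cannot be told apart.

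Wing wild-type replicate 3, the deepest library and the only one with a number far from the others (59, against 22 to 31), stood apart. Its ratio to the other wing wild-type libraries grew with exon length, with a median log2 ratio over all tested genes of -0.43 for genes under 1500 bases, 0.16 from 1500 to below 3000 bases, 0.88 from 3000 to below 6000 bases and 1.60 for 6000 bases or more. Of the 29 members tested in wing discs, 10 fall in the class from 3000 to below 6000 bases and 13 in the longest class, so this library touches most wing values below. Set against the rest of the group, which includes that library, the medians ran the other way in wing wild-type replicate 2, from 0.33 in the shortest to -1.47 in the longest class, and in replicate 1, from 0.03 to -0.68. The same medians stayed between -0.10 and 0.10 in the wing mutants and between -0.32 and 0.16 in the salivary libraries. Each wing mutant library is set only against the other, so these medians cannot show a trend that both share. For the members the wing results turn on, log2 fold changes are therefore also given without wing wild-type replicate 3.

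**Figure D1:**
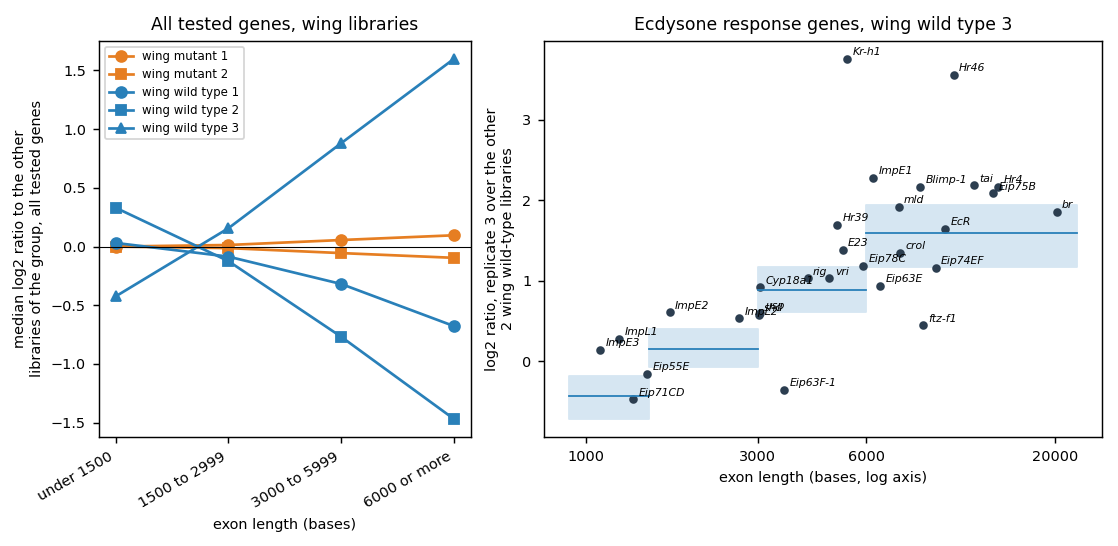
Left, the median log2 ratio of each wing library to the other libraries of its group over all tested genes, in 4 classes of exon length; right, the log2 ratio of wing wild-type replicate 3 to the mean of the other wing wild-type libraries for each ecdysone response gene against its exon length (log axis), with the median (line) and quartiles (band) of all tested genes in that class. Replicate 3 runs from -0.43 in the shortest class to 1.60 in the longest. Of 29 members 15 lie above the bands of their classes, Kr-h1 and Hr46 among them, and 6 lie below.

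The members differed widely in level between the tissues. Of the 31 members, 18 were higher and 7 lower in salivary than in wing wild type, beside 32.7% and 42.4% of all 10835 genes tested (75.1% in either direction). Ranges of CPM did not overlap for 17 members higher and 7 lower, beside 29.2% and 44.6% of all genes. Their median log2 fold change was 1.37, against -0.31 for all genes. With size factors of the kind DESeq2 uses, the median of all genes moved to 0.01 and that of the members to 1.69, and 20 members were then higher and 6 lower.

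CPM per kilobase of exon compares genes only roughly, because the exon length joins the exons of all annotated transcripts of a gene. The exon length trend of wing wild-type replicate 3 also remains in it. On that scale the leading members in salivary wild type were Eip55E at 172 ± 43.6, Eip71CD at 152 ± 45.7, Eip63F-1 at 94.6 ± 43.9 and ImpE2 at 90.7 ± 27.1 (SD, n = 3). Their spreads overlap, so their order is not settled. Eip55E and Eip71CD encode metabolic enzymes, a cystathionine gamma-lyase and a methionine sulfoxide reductase, and Eip63F-1 encodes a calcium-binding EF-hand protein. In wing wild type ImpE2 alone reached 1757 ± 461 CPM per kilobase, and the next, ImpE3, had 96.2 ± 15.8. The Imp genes were isolated as ecdysone-inducible transcripts of imaginal discs.

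**Figure D2:**
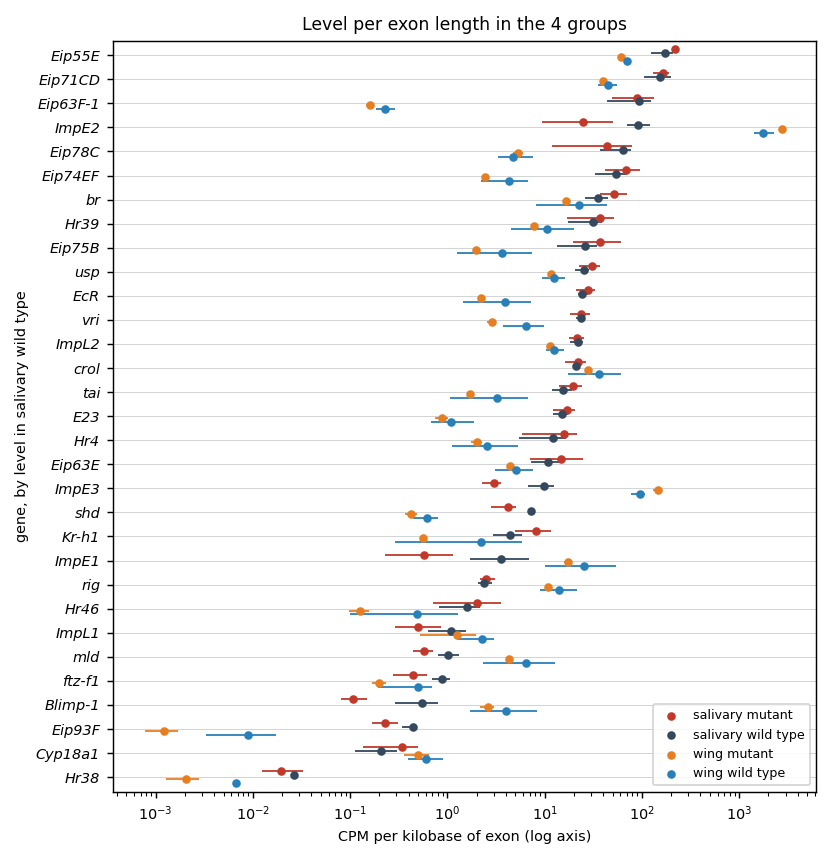
Level of each ecdysone response gene in CPM per kilobase of exon (log axis) in the 4 groups, with the mean as a point and the range over the 2 or 3 libraries of the group as a line. Most members stand higher in salivary glands, while ImpE2, at 1757 CPM per kilobase in wing wild type, and ImpE3 stand higher in wing discs.

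Eip63F-1 had the widest tissue difference of the set. It stood at 156, 436 and 414 CPM in salivary wild-type replicates 1 to 3, against 0.716, 1.03 and 0.661 CPM in wing wild-type replicates 1 to 3. No wing library came near a salivary one, and the log2 fold change was 8.81 ± 0.62 (adjusted p = 2.99e-06). Eip63F-1 shares 132 bases of exon with an antisense RNA, which the salivary libraries cannot set apart.

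Eip93F, a DNA-binding factor that the salivary gland needs for its later destruction, had 6.17, 4.37 and 6.19 CPM in salivary wild type, against 0.0415, 0.0722 and 0.222 CPM in wing wild type. These wing values rest on 4, 7 and 50 counts. The log2 fold change was 5.68 ± 0.61 (adjusted p = 2.93e-05). The early genes Eip74EF, an ETS-domain transcription factor, and Eip75B, a nuclear receptor, were also higher in salivary wild type (3.80 ± 0.48, adjusted p = 8.1e-05, and 2.98 ± 0.69, adjusted p = 0.0035). EcR was 6.74-fold higher (2.75 ± 0.48, adjusted p = 6.26e-04) and its partner usp 2.23-fold higher (1.16 ± 0.23, adjusted p = 0.00136). The ABC transporter gene E23 (3.90 ± 0.42, adjusted p = 2.88e-05) and shd, which encodes the enzyme that makes 20-hydroxyecdysone from ecdysone (3.67 ± 0.28, adjusted p = 4.03e-06), were higher too. Without wing wild-type replicate 3 the log2 fold changes were 3.56 for EcR, 4.05 for Eip75B, 6.69 for Eip93F and 4.55 for E23. Of the other members called higher, Hr4, Hr39 and tai also moved by over 1.5 times, to 3.51, 2.51 and 3.54. Fat body markers summed to 95770 to 147400 CPM in salivary and 1349 to 10430 CPM in wing wild type. Of these 11 markers 9 were higher in salivary wild type and 0 lower, and of 9 gut markers tested 7 were higher and 1 lower. The part of such cells in the tissue differences of the members was not tested.

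The 7 members that were lower in salivary wild type were ImpE1, ImpE2, ImpE3, Blimp-1, mld, rig and Cyp18a1. ImpE2 had 207, 119 and 139 CPM in salivary wild type, against 2423, 2681 and 3898 CPM in wing wild type (log2 fold change -4.17 ± 0.62, adjusted p = 2.45e-04). ImpE3 had 13.7, 7.37 and 11.4 CPM in salivary wild type, against 85.5, 118 and 112 CPM in wing wild type (-3.18 ± 0.28, adjusted p = 9.28e-06). Neither gene's tissues overlapped. The calls of Hr39, Eip63E, ImpE1 and Cyp18a1 were lost when single libraries were left out, ImpE1 among them without wing wild-type replicate 3 (-1.52, adjusted p = 0.0958). Blimp-1 and mld kept their calls without that library at smaller differences, -1.63 against -2.76 and -1.55 against -2.53. The members ftz-f1, Hr46, crol, br, ImpL1 and Kr-h1 did not pass the test between tissues.

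The mutant was next compared with wild type in salivary glands, where 30 of the 31 members had enough counts for the test. Hr38, an orphan nuclear receptor that pairs with usp, was left out with 4 to 12 counts per library. ImpE3 and Blimp-1 fell in mutant glands and no member rose, beside 4.94% of all genes lower and 5.71% higher. At an unadjusted p under 0.05 there were 8 members lower and 1 higher. The share of all genes at that threshold was not counted, so these numbers cannot be set against it. DESeq2 and the likelihood ratio test of edgeR each called 8 members lower and 0 higher. Over all genes DESeq2 called 999 lower and 1092 higher of 8967. The likelihood ratio test called 755 lower and 653 higher of 9004. Ranges of CPM that did not overlap between the genotypes were seen for 8 members, all lower in the mutant, beside 14.4% of all genes lower and 20.9% higher. The median log2 fold change of the 30 members was 0.01, against -0.04 for all 9004 genes tested.

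**Figure D3:**
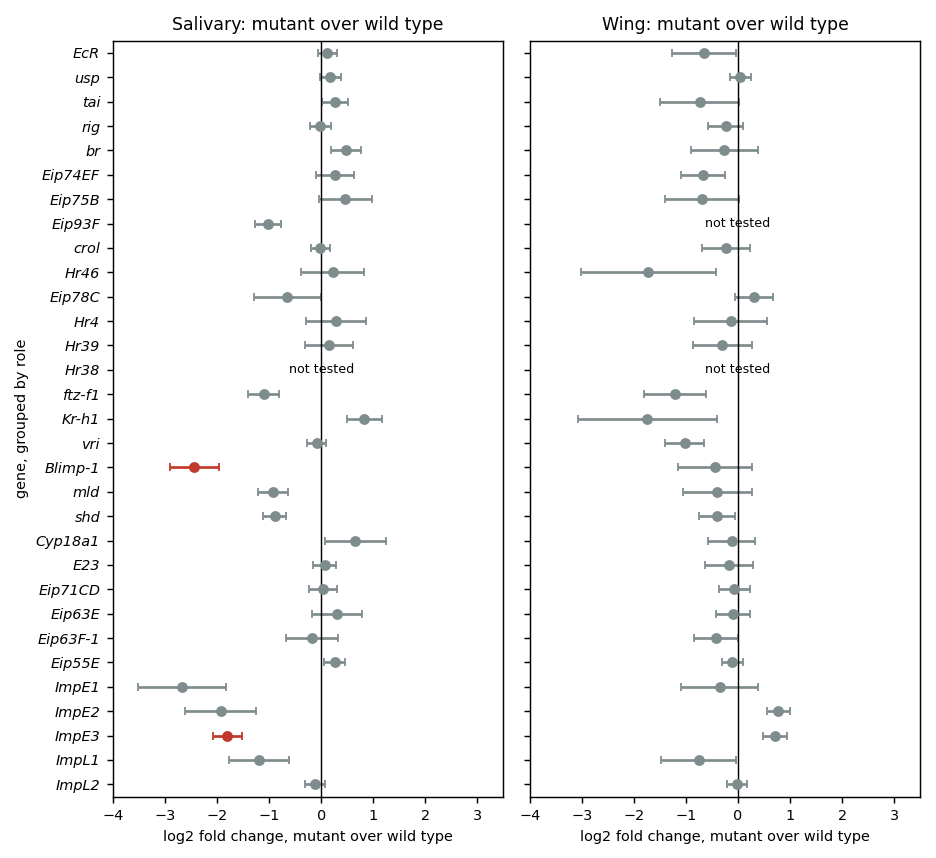
Log2 fold change of mutant over wild type (points, edgeR) with its standard error (bars) for each ecdysone response gene in salivary glands (left) and wing discs (right), grouped by role; red points passed an adjusted p of 0.05. In salivary glands ImpE3 and Blimp-1 passed, and in wing discs no member did.

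The receptor genes did not differ beyond their spread. EcR (2R, 6087873 to 6169087 on BDGP6) had 211, 285 and 329 CPM in mutant glands, against 218, 226 and 276 CPM in wild-type glands, and the genotypes overlapped (log2 fold change 0.11 ± 0.18, adjusted p = 0.710). For usp the values were 69.3, 113 and 99.0 CPM in mutants and 62.7, 87.1 and 84.0 CPM in wild type (0.17 ± 0.20, adjusted p = 0.605). For tai, the gene of a p160-type coactivator, the log2 fold change was 0.26 ± 0.25 (adjusted p = 0.515). The cofactor gene rig had 12.7, 9.55 and 8.89 CPM in mutants and 12.0, 8.58 and 9.17 CPM in wild type, so its ranges overlapped as well. The sign for EcR turned to -0.01 without mutant replicate 3.

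The early puff genes were high in all 6 salivary libraries and overlapped between the genotypes. The zinc-finger gene br (X, 1575132 to 1664869), which specifies the pupal programme, had 751, 981 and 1434 CPM in mutants, against 530, 730 and 905 CPM in wild type (log2 fold change 0.47 ± 0.29, adjusted p = 0.324). Eip74EF (3L, 17558672 to 17619325) had 394, 656 and 885 CPM in mutants, against 311, 550 and 662 CPM in wild type (0.27 ± 0.37, adjusted p = 0.666). Eip75B (3L, 17950953 to 18064696) had 263, 424 and 823 CPM in mutants, against 182, 401 and 460 CPM in wild type (0.46 ± 0.51, adjusted p = 0.584). In all 3 genes replicate 1 was the lowest library of its group and replicate 3 the highest, in both genotypes. Without mutant replicate 3 the log2 fold changes of Eip74EF and Eip75B turned to -0.02 and -0.08.

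Eip93F differed from those early genes in its ranges. It had 2.14, 3.95 and 2.66 CPM in mutant glands, against 6.17, 4.37 and 6.19 CPM in wild-type glands. All mutant libraries lay below all wild-type ones, and the log2 fold change of -1.02 ± 0.25 just missed the threshold (adjusted p = 0.0540). The zinc-finger gene crol had 119, 197 and 176 CPM in mutants and 145, 155 and 170 CPM in wild type.

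Among the early-late nuclear receptors none was called. Eip78C had 69.5, 465 and 238 CPM in mutants, against 220, 456 and 444 CPM in wild type, and its wide mutant range spanned the wild type (log2 fold change -0.65 ± 0.64, adjusted p = 0.541). Hr4 had 81.9, 278 and 297 CPM in mutants, against 76.4, 200 and 230 CPM in wild type. Hr46, the fly ROR homologue that represses early genes and induces ftz-f1, had 7.44, 37.7 and 17.8 CPM in mutants, against 8.66, 22.8 and 18.5 CPM in wild type. Replicate 1 was again the lowest library of each group for Hr4 and Hr46. Hr39 had 85.1, 257 and 209 CPM in mutants, against 86.9, 188 and 193 CPM in wild type, with the same low library in each group.

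The mid-prepupal nuclear receptor ftz-f1 (3L, 18750607 to 18801309), a competence factor for the prepupal ecdysone pulse, was low in all glands. It had 2.36, 5.24 and 3.71 CPM in mutants, against 6.0, 7.83 and 9.04 CPM in wild type. The genotypes did not overlap, and the log2 fold change was -1.11 ± 0.29 (adjusted p = 0.0635). An overlapping noncoding RNA on the same strand shares 2521 bases with ftz-f1, so part of its counts is uncertain.

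Blimp-1 (3L, 5630983 to 5652094), an ecdysone-induced zinc-finger repressor that sets the time at which ftz-f1 appears, fell in mutant glands. It had 0.753, 0.679 and 1.26 CPM in mutants, against 6.76, 2.43 and 4.66 CPM in wild type, which are 31, 32 and 53 counts against 277, 100 and 185 counts. Every mutant library lay below every wild-type one, and the level was 5.4-fold lower (log2 fold change -2.43 ± 0.47, adjusted p = 0.0279). The call was lost in 5 of 6 fits that left out 1 library, at adjusted p of up to 0.101 without mutant replicate 2, and with a spread shared over all 11 libraries (adjusted p = 0.0563). It was kept without wild-type replicate 2 (adjusted p = 0.0353).

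Of the other induced regulators, mld, a zinc-finger gene needed for ecdysteroid synthesis, had 5.30, 4.06 and 3.28 CPM in mutants, against 9.68, 6.98 and 5.92 CPM in wild type (log2 fold change -0.92 ± 0.28, adjusted p = 0.0892). Its genotypes did not overlap. Kr-h1, a zinc-finger gene best known as a target of juvenile hormone, had 26.4, 61.5 and 43.0 CPM in mutants, against 15.8, 22.8 and 30.9 CPM in wild type, and mutant replicate 1 lay within the wild-type range (0.83 ± 0.34, adjusted p = 0.168). Kr-h1 shares 4168 bases with CG45075 on the same strand, which is no entry of the count table. The bZIP gene vri had 86.4, 112 and 138 CPM in mutants and 112, 101 and 123 CPM in wild type.

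For hormone level, shd (3L, 14614458 to 14622205) had 8.38, 13.9 and 15.3 CPM in mutant glands, against 21.6, 21.7 and 22.6 CPM in wild-type glands. The wild-type libraries were tight and all above the mutants, and the log2 fold change was -0.90 ± 0.21 (adjusted p = 0.0513). Without mutant replicate 1, its lowest library, the call passed at a smaller change (-0.68, adjusted p = 0.0254). Cyp18a1, which encodes the enzyme that inactivates 20-hydroxyecdysone, had 0.413, 1.19 and 1.52 CPM in mutants and 0.342, 0.606 and 0.932 CPM in wild type (0.65 ± 0.58, adjusted p = 0.493). E23, whose transporter dampens the ecdysone response, had 62.7, 90.3 and 107 CPM in mutants and 62.4, 82.0 and 88.9 CPM in wild type. Both genes overlapped between the genotypes.

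With Blimp-1, the ImpE genes had the log2 fold changes farthest from 0 among the members in mutant glands. ImpE3 (3R, 8028453 to 8029546) had 3.94, 3.44 and 2.47 CPM in mutants, against 13.7, 7.37 and 11.4 CPM in wild type. The genotypes were well apart and ImpE3 was 3.48-fold lower in mutant glands (log2 fold change -1.80 ± 0.28, adjusted p = 0.0159). Its call was lost without wild-type replicate 3 (adjusted p = 0.0515), mutant replicate 2 (adjusted p = 0.0786) or mutant replicate 3 (adjusted p = 0.0741), while the log2 fold change stayed between -1.99 and -1.57.

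ImpE1 (3L, 8372405 to 8391171) had 7.22, 1.42 and 2.28 CPM in mutants, against 42.9, 10.7 and 12.7 CPM in wild type. Replicate 1 was the highest library in both groups, yet no mutant library reached a wild-type one (log2 fold change -2.67 ± 0.85, adjusted p = 0.101). ImpE2 (3L, 3510974 to 3512681) had 86.3, 25.2 and 16.0 CPM in mutants, against 207, 119 and 139 CPM in wild type (-1.93 ± 0.68, adjusted p = 0.124). Here too replicate 1 was the highest of each group and the genotypes did not overlap. Without mutant replicate 1 the change of ImpE2 was -3.02 and passed (adjusted p = 0.0162).

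ImpL1 had 1.07, 0.425 and 0.357 CPM in mutants, against 1.90, 0.776 and 1.36 CPM in wild type, with overlap (log2 fold change -1.19 ± 0.58, adjusted p = 0.228). ImpL2, which encodes a protein that binds insulin-like peptides, had 56.3, 47.9 and 68.4 CPM in mutants and 67.0, 49.1 and 60.7 CPM in wild type. The puff genes Eip71CD, Eip55E, Eip63E, which encodes a cyclin-dependent kinase, and Eip63F-1 all overlapped between the genotypes.

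**Figure D4:**
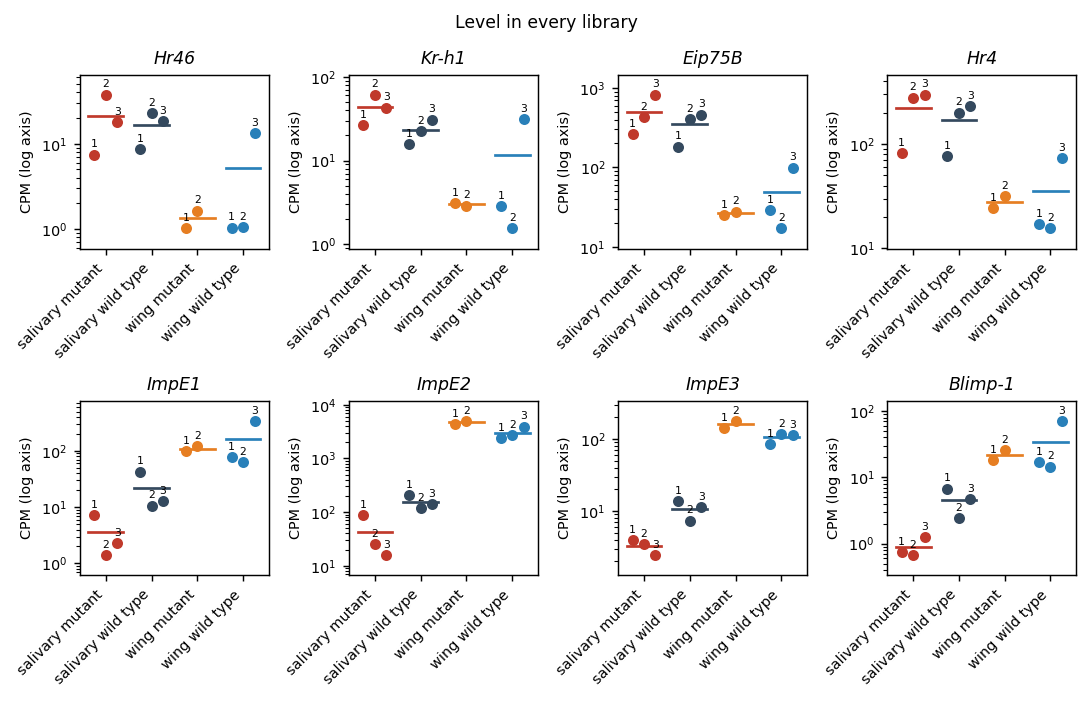
Level of 8 ecdysone response genes in every library in CPM (log axis), with replicate numbers beside the points and the group mean as a bar. ImpE1, ImpE2, ImpE3 and Blimp-1 lie lower in salivary mutants than in salivary wild type without overlap, and Hr46 and Kr-h1 have 1 high library, replicate 3, in wing wild type.

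Genes of other cell types moved alongside these salivary members, and their part in the result was not tested. All 3 cuticle markers tested fell in mutant glands: the larval cuticle genes Lcp1, Lcp2 and Lcp4. The 8 genes of that list summed to 0.737 to 1.17 CPM in mutants and 5.48 to 75 CPM in wild type, and 1 to 4 of them were at 0 in each library. Of 8 trachea markers, 1 rose (Osi17) and 2 fell (pio and btl), with a summed level of 99.2 to 132 CPM in mutants and 152 to 192.5 CPM in wild type. Their ranges were apart and lower for 6 and higher for 1. Of 14 wing disc identity markers 0 were called by edgeR and 5 had an unadjusted p under 0.05, 12 had a negative log2 fold change, and the list summed to 124 to 206 CPM in mutants and 161 to 201 CPM in wild type. In wing wild type the same list summed to 394 to 1180 CPM.

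Fat body markers summed to 136200 to 196700 CPM in mutants and 95770 to 147400 CPM in wild type, and 3 of 11 rose (Lsp1alpha, Fbp2 and Desat1). All 11 had a positive log2 fold change, and 6 had ranges apart and higher. None of the 11 was at 0 in any library. Hemocyte markers had 1 of 10 higher and 3 lower, and summed to 337 to 357 CPM in mutants and 315 to 346 CPM in wild type. Their ranges were apart and lower for 5 and higher for 1. Muscle markers had 0 of 12 higher and 2 lower, and summed to 631 to 1193 CPM in mutants and 480 to 742 CPM in wild type. Although the sum rose, 9 of the 12 had a negative log2 fold change, and ranges were apart and lower for 5 and higher for 0. Over all genes, ranges were apart and lower for 14.4% and higher for 20.9%. Neuron markers had 0 of 5 tested called by edgeR and 1 with an unadjusted p under 0.05, with sums of 141 to 212 CPM in mutants and 115.3 to 199 CPM in wild type. Gut markers had 1 of 4 tested higher and 1 lower, and their summed level of 629 to 949 CPM in mutants lay within the 412 to 10220 CPM of wild type.

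The members also describe how the salivary libraries stood relative to one another. Wild-type replicate 1 was the lowest of the 6 libraries for 10 of 30 members (33.3%), against 18.9% of all genes, and mutant replicate 1 was the lowest for another 10, against 19.2% of all genes. Mutant replicate 3 was the highest for 11 members (36.7%), against 11.5% of all genes. The 10 members lowest in wild-type replicate 1 included br, Eip74EF, Eip75B, Hr4 and Kr-h1, and those lowest in mutant replicate 1 included EcR, Eip78C, Hr46, Hr39 and ftz-f1.

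The summed level of the early puff genes was 1528, 2263 and 3321 CPM in mutant replicates 1 to 3 and 1173, 1840 and 2203 CPM in wild-type replicates 1 to 3. For the early-late and mid-prepupal receptors the sums were 246, 1043 and 765 CPM in mutants and 398, 875 and 894 CPM in wild type. Both groups thus had 1 library with low early and early-late gene levels, and the spread within a genotype exceeded the difference between the genotypes. All 6 salivary libraries shared high br and Eip74EF, low ftz-f1 and Blimp-1, and high glue gene levels, with the 7 glue genes summing to 291300 to 400900 CPM in mutants and 387800 to 520600 CPM in wild type.

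Some genes of hormone synthesis were high in replicate 1 of both genotypes, though their list as a whole was not: the 15 genes summed to 454, 492 and 471 CPM in mutants and 530, 414 and 481 CPM in wild type. phm, which encodes a hydroxylase of the ecdysone pathway made in the prothoracic gland, had 10.6, 0.552 and 0.309 CPM in mutants and 29.8, 0.388 and 5.54 CPM in wild type. The synthesis gene sad had 12.9, 0.191 and 0.285 CPM in mutants and 30.9, 0.679 and 6.19 CPM in wild type. phm and sad were chosen after their values were seen, and other genes of the list, ecd and Start1 among them, were lowest in replicate 1 of both groups. Replicate 1 was the highest library of its group for both, as it was for ImpE1, ImpE2, ImpE3 and ImpL1. Neither stage nor the amount of other tissue in these libraries is given, and their part in the pattern was not tested.

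**Figure D5:**
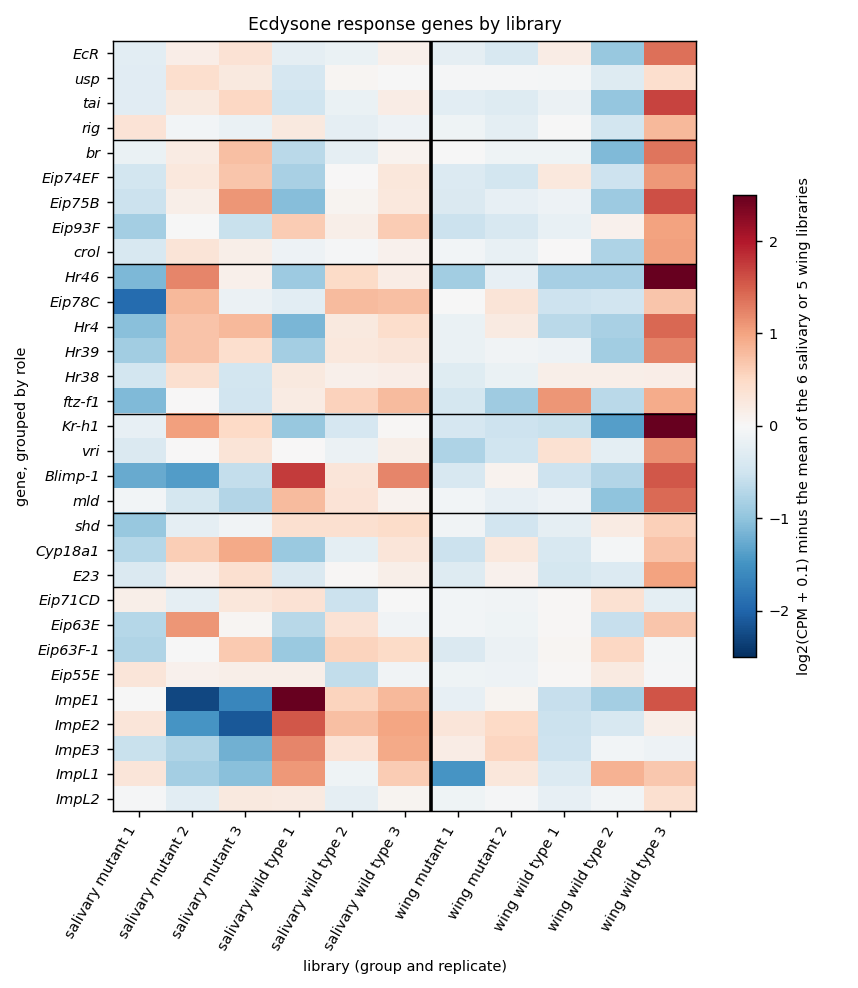
Level of each ecdysone response gene in every library as log2(CPM + 0.1) minus the mean of the 6 salivary or the 5 wing libraries, with colours ending at -2.5 and 2.5, genes grouped by role and a black line between the tissues. Replicate 1 of both salivary groups is low for most early and early-late genes, the ImpE genes and Blimp-1 are low in salivary mutants, and wing wild-type replicate 3 is high for 22 of 29 tested members.

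In wing discs the mutant was compared with wild type for 29 members. Hr38 and Eip93F had too few counts, 1 to 12 and 1 to 50 per library. No member was called by edgeR in either direction, beside 0.165% of all genes lower and 0.32% higher, and DESeq2 and the likelihood ratio test of edgeR called 0 as well. At an unadjusted p under 0.05 there were 2 members higher and 1 lower, without a count of all genes at that threshold. Ranges did not overlap for 2 members higher in the mutant and 3 lower, beside 9.7% and 16.9% of all genes.

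ImpE2 and ImpE3 were the 2 with higher ranges. ImpE2 had 4392 and 4994 CPM in mutant discs, against 2423, 2681 and 3898 CPM in wild-type discs (log2 fold change 0.77 ± 0.22, adjusted p = 0.325). ImpE3 had 141 and 178 CPM in mutants, against 85.5, 118 and 112 CPM in wild type (0.71 ± 0.23, adjusted p = 0.386). Both mutant libraries lay above all 3 wild-type libraries in each gene, although neither difference passed the threshold. Without wild-type replicate 3 the values were 0.88 for ImpE2 and 0.65 for ImpE3 (adjusted p = 0.159 and 0.370). ImpE1 had 99.5 and 121 CPM in mutants, against 77.1, 63.4 and 341 CPM in wild type, and only wild-type replicate 3 exceeded the mutants.

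The 3 members with lower ranges were vri, Eip63F-1 and Eip55E. For vri the values were 12.2 and 14.9 CPM in mutants, against 27.4, 17.9 and 46.4 CPM in wild type (log2 fold change -1.02 ± 0.37, adjusted p = 0.490). Without wild-type replicate 3 the log2 fold change of vri was -0.72 (adjusted p = 0.305). After the exon length trend of each library was removed, that of vri was -0.84 and passed (adjusted p = 0.045). Eip63F-1 was low in all wing libraries, with 0.511 and 0.612 CPM in mutants and 0.716, 1.03 and 0.661 CPM in wild type (-0.42 ± 0.41, adjusted p = 1). Eip55E had 91.2 and 90.7 CPM in mutants and 101, 116 and 97.4 CPM in wild type.

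Among the wing members 25 of 29 log2 fold changes were negative, with a median of -0.30 against -0.03 for all genes. Without wild-type replicate 3 the count was 9 of 29 negative and the median 0.21, and with the exon length trend removed it was 16 of 29 and -0.04. That library was the highest of the 5 for 22 of the 29 members (75.9%), against 45.9% of all genes. Wild-type replicate 2 was the lowest of the 5 for 15 of the 29 members (51.7%), against 38.6% of all genes. Without replicate 2 the count was 24 of 29 negative and the median -0.48. The direction of most members in wing discs thus turned when wild-type replicate 3 was left out, in a fit that still holds replicate 2.

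Hr46 and Kr-h1 stood out in that library beyond their exon length. Of the 29 members, 15 lay above the upper quartile of their length class there and 6 below the lower quartile. In the top 5% of their class were Hr46, Hr39, ImpL1 and Kr-h1. Hr46 had 1.01 and 1.64 CPM in mutants, against 1.04, 1.04 and 13.3 CPM in wild type. Replicate 3 was 12.8-fold above the mean of the other wild-type libraries, where the median gene of its length class was 3.03-fold above. Kr-h1 had 3.12 and 2.90 CPM in mutants, against 2.83, 1.55 and 31.0 CPM in wild type, and replicate 3 was 14.2-fold above the others, where the median of its class was 1.84-fold. The other libraries of both genotypes were close to one another for both genes. The log2 fold changes of -1.72 ± 1.29 for Hr46 and -1.74 ± 1.34 for Kr-h1 (adjusted p = 1 each) turned to 0.36 and 0.47 without replicate 3. Hr46 and Kr-h1 overlap annotated genes on their own strand that are no entries of the count table, so part of their counts is uncertain.

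For EcR, br and Eip75B the ratio of that library to the others exceeded that of 54.7%, 69.4% and 84.1% of genes in their length class, and for Hr39 that of 97.9%. Eip75B had 25.2 and 27.8 CPM in mutants, against 29.4, 17.1 and 99.5 CPM in wild type (log2 fold change -0.69 ± 0.71, adjusted p = 1). br had 345 and 326 CPM in mutants, against 323, 163 and 882 CPM in wild type (-0.26 ± 0.64, adjusted p = 1). Replicate 3 was the highest for both and replicate 2 the lowest, with the mutants between them. Without replicate 3 the changes were 0.21 and 0.48. EcR had 23.3 and 20.7 CPM in mutants, against 31.2, 14.2 and 71.6 CPM in wild type (-0.66 ± 0.61, adjusted p = 1), and its log2 fold change without replicate 3 was -0.03.

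ftz-f1 did not follow that library. It had 2.0 and 1.43 CPM in mutant discs, against 6.0, 1.68 and 5.28 CPM in wild-type discs, so wild-type replicates 1 and 3 were high and replicate 2 fell among the mutants (log2 fold change -1.21 ± 0.59, adjusted p = 0.715, and -1.14 without replicate 3). Blimp-1 had 18.3 and 25.8 CPM in mutants, against 16.9, 14.6 and 71.1 CPM in wild type, with replicate 3 alone above the mutants (-0.44 ± 0.72, adjusted p = 1, and 0.50 without replicate 3). usp, ImpL2, Eip71CD and Eip63E overlapped between the genotypes, as did the remaining members. In the wing libraries 1 of 12 muscle markers was called, Mhc, which was lower in mutants, and 8 of 12 had ranges apart and lower. The list summed to 275 to 290 CPM in mutants and 363 to 473 CPM in wild type. Of 10 hemocyte markers 0 were called by edgeR, 6 had an unadjusted p under 0.05, 9 had a negative log2 fold change and 6 had ranges apart and lower, with a median of -1.21 and sums of 254 to 258 CPM in mutants and 206 to 705 CPM in wild type. Of 5 cuticle markers tested 0 were called, 2 had an unadjusted p under 0.05 and 4 had ranges apart and lower, with sums of 22.0 to 56.4 CPM in mutants and 119 to 450 CPM in wild type. For the counts at an unadjusted p under 0.05 the share of all genes was not counted. The part of these cells in the wing values was not tested.

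Whether a member responded to the mutation differently in salivary glands and wing discs was tested as an interaction over all 11 libraries. ImpE3 was the 1 member of 31 called, lower in glands relative to discs, beside 0.858% of all genes called in either direction (0.545% higher and 0.314% lower). The difference between its log2 fold changes was -2.37 ± 0.39 (adjusted p = 0.0278), with all 3 mutant glands below all wild-type glands and both mutant discs above all wild-type discs. The call was lost in 6 of 11 fits that left out 1 library, at adjusted p of up to 0.199 without wing mutant replicate 2, while the difference stayed between -2.61 and -2.17. ImpE2 had the same arrangement of ranges (-2.55 ± 0.82, adjusted p = 0.217) and passed without salivary mutant replicate 1 (-3.65, adjusted p = 0.0106). The values for Blimp-1 and ImpE1 were -1.81 ± 0.90 (adjusted p = 0.452) and -2.12 ± 1.22 (adjusted p = 0.527). Without wing wild-type replicate 3 they were -2.89 for Blimp-1 and -3.28 for ImpE1 (adjusted p = 0.0692 and 0.209), and ImpE3 kept its call at -2.40 (adjusted p = 0.0461).

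Other lists of the pathway are given as counts, with calls to be read beside the 5.71% of all genes higher and 4.94% lower in mutant salivary glands. For their counts at an unadjusted p under 0.05 there is no such share of all genes. Of 13 tested genes for ecdysteroid synthesis, transport and oxidation 0 were called by edgeR, with 2 at an unadjusted p under 0.05. Of 13 EcR coregulator genes 1 rose, Hsp83, which encodes the Hsp90 chaperone (log2 fold change 2.02 ± 0.29, adjusted p = 0.0124), with 3187, 2402 and 1487 CPM in mutants against 479, 585 and 583 CPM in wild type. Of 7 juvenile hormone genes 0 were called and 1 had an unadjusted p under 0.05.

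Among downstream targets, calls were lower for glue genes, higher for intermoult genes and for 1 cell death gene, and absent for genes at the 71E puff. Of the 7 glue protein genes, whose product glues the pupa to a surface, 0 rose and 3 fell: Sgs7, Sgs8 and CG7587. Of 5 intermoult genes, which are expressed in the gland before glue secretion, 2 rose, Pig1 and ng2. The genes at the 71E puff had 0 of 8 called and 0 at an unadjusted p under 0.05. Eig71Ee alone held nearly all of their counts, at 88420 ± 17870 CPM in mutants and 69560 ± 13600 CPM in wild type (SD, n = 3 each). Of 12 genes of ecdysone-triggered cell death 1 rose, the autophagy kinase gene Atg1 (0.47 ± 0.11, adjusted p = 0.0428), and 7 of the 12 had a negative log2 fold change. Of 9 tested genes of prepupal timing 0 were called, with 3 at an unadjusted p under 0.05. In wing discs edgeR called no gene of any of these lists. At an unadjusted p under 0.05 there were 1 of 13 synthesis genes, 2 of 7 juvenile hormone genes and 1 of 2 intermoult genes. There were 0 of 13 coregulator, 7 glue, 12 cell death and 11 timing genes, and 0 of 5 genes at the 71E puff.

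The authors' deposited tables, which cover 11021 genes per tissue, list more members at a false discovery rate of at most 0.05. In the authors' deposited table for salivary glands 8 members were lower and 0 higher, beside 16.5% of genes listed at that rate in either direction. The share of genes in each direction was not counted for these tables. These were ImpE1, ImpE2, Blimp-1, ImpE3, ftz-f1, Eip78C, shd and Eip93F in the authors' deposited table, with log2 fold changes from -2.35 for ImpE1 to -1.04 for shd. In the authors' deposited table for wing discs ImpE2 (0.80) and ImpE3 (0.68) were higher and vri (-0.86) and Eip93F (-2.32) lower, beside 13.1% of genes in either direction. The wing value of Eip93F rests on 1 and 2 counts in mutants and 4, 7 and 50 counts in wild type.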

How the data were processed

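Raw counts per gene for 11 libraries were deposited by the authors. The submitters' processing notes list HTSeq 0.6.1, TopHat2 2.0.8b, Trim Galore 0.3.3, BWA, FastQC 0.11.3 and Picard 1.119, with the build BDGP6. How strand and shared reads were treated is not given in the labels used. The deposited comparison tables hold, per the file headers, log2 fold changes, a likelihood ratio score, p-values and false discovery rates. The deposited lists of gene identifiers were not used.

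Of 16034 entries, 11021 had a symbol, 4837 were named by position in the BDGP6 annotation, and 176 unnamed ones, with 0.000201% to 0.000607% of counts, were left out. Each tissue was fitted alone with edgeR 4.0.16 (R 4.3.3): filterByExpr (minimum count 10, minimum total 15), trimmed mean of M-values, and the robust quasi-likelihood F-test with legacy dispersions. A gene was called, and said to rise or fall, where its p after Benjamini-Hochberg adjustment over all tested genes was 0.05 or less. The share of all genes at an unadjusted p under 0.05 was not counted. Counts of members, markers or list genes at that threshold therefore cannot be compared with all genes. The interaction and the tissue contrast used all 11 libraries with 1 spread. Standard errors follow log2 fold changes after ±. The members and lists were chosen with earlier results of these data known. All 31 members are named; from other lists up to 3 called genes per tissue are named. The alternatives were size factors as in DESeq2 1.42.0, DESeq2 itself, no filter, each library left out, 1 spread over all libraries, the likelihood ratio test, and, chosen after seeing the data, removal of each library's exon length trend.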

Additional observations from a re-analysis of the deposited data

Results flagged for a closer look

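The response of ImpE3 to the mutation differed between the tissues by the test of the difference itself: its log2 fold change of mutant over wild type was lower in salivary glands than in wing discs by -2.37 ± 0.39 (edgeR, adjusted p = 0.0278). The call was kept in only 5 of 11 fits that left out 1 library. ImpE3 was lower in all 3 mutant glands than in any wild-type gland and higher in both mutant discs than in any wild-type disc. Such ranges were seen for 14.4% of all genes in glands and 9.7% in discs. In wing discs alone the difference did not pass (edgeR, adjusted p = 0.386). Tissue and library kind cannot be told apart here.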

How the results depend on the processing

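No paired analysis was possible because the labels give no replicate numbers shared between the groups. In salivary glands 959 genes were called, against 2091 by DESeq2 and 310 to 1070 with 1 library left out, and the 2 members called lower became 8 by DESeq2, 8 by the likelihood ratio test, 5 with the exon length trend removed, 1 with the spread shared over all libraries and 0 to 3 with 1 library left out. In wing discs 47 genes were called, against 583 by DESeq2, 463 by the likelihood ratio test, 253 with the exon length trend removed, 140 with the shared spread and 0 to 45 with 1 library left out, and the 0 members called lower became 1 with the exon length trend removed. The share of wing calls that were higher was 66%, 43.4% by DESeq2, 41.5% by the likelihood ratio test, 55.7% with the exon length trend removed and 53.6% with the shared spread. For the interaction 93 genes were called, against 623 by DESeq2 (47.5% higher, against 63.4%), 270 with the exon length trend removed and 7 to 264 with 1 library left out, and the 1 member called lower became 2 by DESeq2 and 0 to 2 with 1 library left out. Single-gene values under the alternatives were scored only for members with an unadjusted p under 0.05 in a comparison and for others picked by hand. Among these scored members, with 1 library left out, log2 fold changes that changed sign ran in salivary glands from -0.0104 to 0.262 for EcR, -0.0164 to 0.514 for Eip74EF and -0.0820 to 0.761 for Eip75B, the lowest without mutant replicate 3. In wing discs they ran from -0.648 to 0.482 for br, -1.08 to 0.206 for Eip75B, -2.22 to 0.357 for Hr46, -0.708 to 0.658 for ImpE1, -2.26 to 0.473 for Kr-h1 and -0.781 to 0.497 for Blimp-1, the highest without wild-type replicate 3. With the exon length trend removed, the wing values of scored members that changed sign were 0.387 for br, 0.115 for ImpE1 and 0.0860 for Blimp-1. Over all members tested, positive wing values went from 4 of 29 to 20 of 29 without wild-type replicate 3, and to 5 of 29 without wild-type replicate 2. With the trend removed they were 13 of 29. Positive salivary values went from 15 of 30 to 11 of 30 without mutant replicate 3. The cause was not tested. Of the other values of the scored members under an alternative, 680 kept direction and side of the threshold, 34 lost a call and 20 gained one. Members that were not scored are left out of these counts. With 1 to 12 counts per library, Hr38 could not be compared between genotypes.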
